A study of Mus musculus with 6 samples.

Results

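The genes examined here encode the enzymes that make prostanoids and the receptors that sense them: the phospholipase Pla2g4a, the cyclooxygenases Ptgs1 and Ptgs2, and the receptors Ptger1, Ptger2, Ptger3, Ptger4, Ptgfr, Ptgir and Tbxa2r. They were picked by name as the phospholipase, cyclooxygenase and prostanoid receptor genes in a list drawn up for an inflammation panel, and all 10 of them were found among its 254 transcripts. The tissue was full-thickness skin from the back of SKH-1 mice, a hairless strain with a working immune system, assayed on the nCounter Mouse Inflammation V2 panel, in which barcoded probes are counted without amplification. Every mouse received 1 acute dose of solar simulated light (90 kJ/m2 of UVA with 6 kJ/m2 of UVB), and its skin was collected 24 h later. Mice of the UV group (3 samples) had acetone vehicle on the irradiated skin. Those of the UV plus BMS-202 group (3 samples) had BMS-202, which blocks the immune checkpoint ligand PD-L1, applied as 200 µl at 8 mM. Either solution was put on 3 times, at 24 h and at 1 h ahead of the light and again straight after it. In the sample titles WT marks the UV group, and BMS-202 stands in its place for the other group. The study asks what blocking PD-L1 on the skin does to UV-induced stress and inflammatory transcripts. Skin without UV was not analysed here, so no value below is a distance from resting skin.

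Prostanoids are short-lived lipid signals. Cytosolic phospholipase A2, the product of Pla2g4a, frees arachidonic acid from membranes, and the cyclooxygenases turn it into prostaglandin H2, from which prostaglandins, prostacyclin and thromboxane are made. Ptgs1 is expressed steadily in many tissues, whereas Ptgs2 is induced by cytokines, growth factors and ultraviolet light, and in skin its product drives much of the redness and swelling of sunburn. The receptors are G protein-coupled: Ptger1 to Ptger4 encode the prostaglandin E2 receptors EP1 to EP4, Ptgfr the prostaglandin F receptor, Ptgir the prostacyclin receptor and Tbxa2r the thromboxane receptor.

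The starts of the 3 enzyme genes are shown because these genes read lower together in the deposited values, and because Ptgs1 and Ptgs2 are the textbook pair of a steadily expressed and an inducible gene. The sequences are from RefSeq (GRCm38.p6), run 5′ to 3′ on the gene's strand from 250 bases before the start site to 25 bases after it, and lie at chr1:149961266-149961540 on the minus strand for Pla2g4a, chr2:36230176-36230450 on the plus strand for Ptgs1 and chr1:150099781-150100055 on the plus strand for Ptgs2. Capitals mark matches, on either strand, to the cyclic AMP response half-site TGACG, the E-box CACGTG, the C/EBP palindrome TTGCGCAA, the TATA box TATAAA and the GC box GGGCGG.
Pla2g4a: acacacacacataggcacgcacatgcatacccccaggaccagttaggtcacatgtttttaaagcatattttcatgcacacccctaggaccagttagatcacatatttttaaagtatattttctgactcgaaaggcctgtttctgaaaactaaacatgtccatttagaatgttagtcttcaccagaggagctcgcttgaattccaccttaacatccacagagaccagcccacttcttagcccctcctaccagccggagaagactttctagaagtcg
Ptgs1: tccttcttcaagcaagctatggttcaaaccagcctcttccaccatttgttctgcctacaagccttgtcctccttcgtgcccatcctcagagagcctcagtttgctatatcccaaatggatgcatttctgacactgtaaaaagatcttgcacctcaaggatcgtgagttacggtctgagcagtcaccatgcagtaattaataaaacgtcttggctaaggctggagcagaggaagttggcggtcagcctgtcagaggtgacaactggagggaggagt
Ptgs2: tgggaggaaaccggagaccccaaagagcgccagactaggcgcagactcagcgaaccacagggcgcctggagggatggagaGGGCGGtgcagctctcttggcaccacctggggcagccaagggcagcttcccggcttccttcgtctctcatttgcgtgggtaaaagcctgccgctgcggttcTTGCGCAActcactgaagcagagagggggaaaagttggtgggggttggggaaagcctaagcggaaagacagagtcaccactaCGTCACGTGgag

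The Ptgs2 start held 4 of these 5 motifs and the Ptgs1 and first Pla2g4a starts held none, in windows that reached 50 bases past the start site. The Ptgs1 start shown lies inside the RefSeq gene, which begins at base 36216742 of chromosome 2, and the start of the gene there was not searched. In Ptgs2 the GC box began 170 bases before the start site, the C/EBP palindrome 69 bases before it, and the half-site and the E-box, which overlap each other, at bases 14 and 17 after it. The C/EBP palindrome is rare: of all 32851 RefSeq windows of this length, 0.183% held it, against 7.15% for the E-box, 20.8% for the half-site, 13.6% for the TATA box and 35.7% for the GC box. Of the 9 prostanoid genes with a window in the table, Ptgs2 alone matched the palindrome, the half-site and the E-box in the first window listed, and 5 matched the GC box (Ptgs2, Ptger3, Ptger4, Ptgfr and Ptgir). The second windows listed for Tbxa2r and Pla2g4a held a half-site with a GC box and a TATA box. Pla2g4a and Ptgs2 are neighbours on chromosome 1, with 0 protein-coding genes between them in RefSeq. A match to a few letters is a description of the sequence and says nothing of what binds there.

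The gene values are probe counts scaled so that Gapdh, a glycolytic enzyme gene, reads the same in every sample, and any scaled value below 20 is written as 20, called the floor here. Before scaling, the gene probes of a UV sample summed to 142900 to 160891 counts and those of a UV plus BMS-202 sample to 41537 to 45040, while the positive spike-in probes differed less, at 78281 to 90723 and 67957 to 73592. The other 5 housekeeping genes read 2.33 to 10.6-fold lower with BMS-202 once Gapdh was fixed, so a direction given relative to Gapdh can turn when another reference is used. The mean of the 8 negative control probes, put on the same scale, was 11.1 with UV and 20.9 with BMS-202, which is 1.88 times as high. The highest negative control limit of a sample (mean + 2 SD) was 26.6 with UV and 45.3 with BMS-202. Pairs of samples within a group did not differ detectably beyond sampling noise (chi-square per degree of freedom 1.04 to 1.15, p = 0.0568 to 0.330), so SDs and p-values measure a spread near counting error. That spread may be technical, although the labels give 3 mice per group.

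In the deposited values the 3 enzyme genes were lower with BMS-202 and the receptors were split, with 4 higher, 1 lower and 2 without a call. Ptgs1 fell furthest, 3.09-fold, and Tbxa2r rose most, at least 4.98-fold. In total 4 of the 10 prostanoid genes were called higher, where 38.3% of the 240 tested panel genes were, and 4 were called lower, where 55.0% were (limma, Benjamini-Hochberg adjusted p under 0.05). The share of prostanoid genes called in each direction was thus near that of the panel. All 10 genes passed the filter for testing, a value above 20 in at least 3 of 6 samples. Ptger1 and Tbxa2r passed it through the BMS-202 samples alone, so they could hardly be called lower. In full-thickness skin a lower value can come from fewer cells of a type or from less RNA per cell, and these cannot be told apart.

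**Figure D1:**
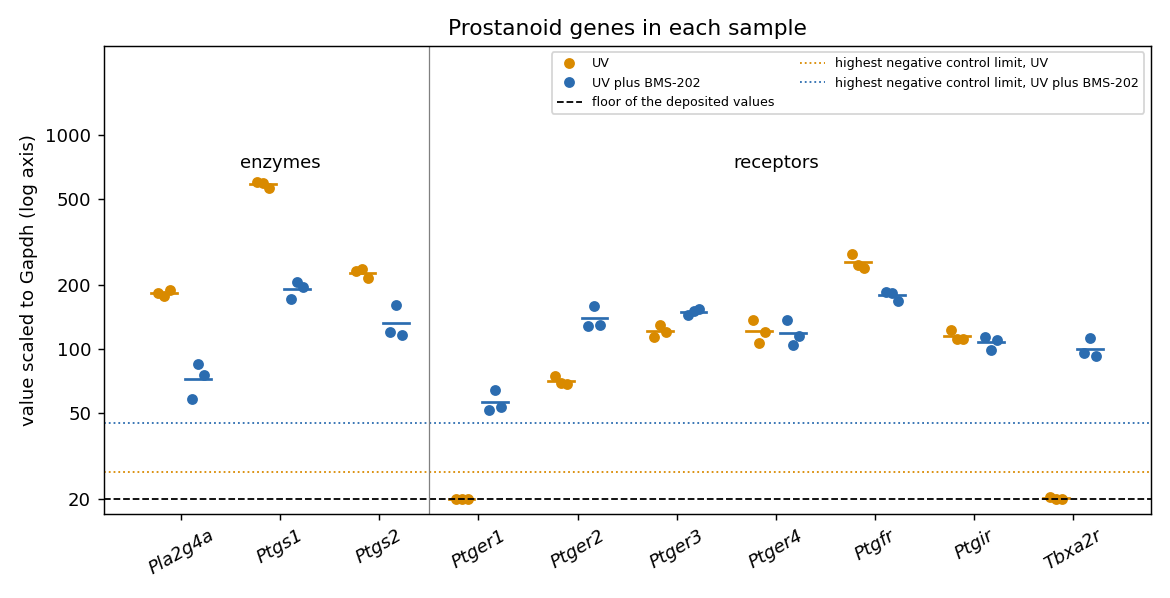
Value of each prostanoid gene in each sample (points, log axis, scaled to Gapdh) with the group mean of 3 samples (bars). The dashed line is the floor of 20 and the dotted lines are the highest negative control limits, 26.6 with UV and 45.3 with BMS-202. The BMS-202 points of the 3 enzymes lie below all UV points, and those of Ptger1, Ptger2, Ptger3 and Tbxa2r above. This holds relative to Gapdh: all 10 genes were called higher under both housekeeping scalings.

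Among the enzymes, Ptgs1 read 604, 596 and 563 in the 3 UV samples and 171, 205 and 194 in the 3 UV plus BMS-202 samples. The lowest UV sample was above the highest BMS-202 sample, and the mean fell from 588 ± 21.8 to 190.2 ± 17.6 (SD, n = 3). The log2 difference, always given as UV plus BMS-202 minus UV, was -1.63 with an SE of 0.0745 (limma adjusted p = 5.40e-09). Under both housekeeping scalings it turned to a higher call, and with quantile normalization there was no call (0.032, adjusted p = 0.847). Ptgs1 stood on 141 to 178 counts per BMS-202 sample and 645 to 710 counts per UV sample.

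Ptgs2, the inducible cyclooxygenase gene, read 231, 236 and 216 with UV and 119.9, 159.9 and 116 with BMS-202. The groups did not overlap, although 1 BMS-202 sample stood above the other 2, and the SD with BMS-202 (24.4) exceeded the SD expected from counting alone (12.4). The log2 difference was -0.80 ± 0.12 (SE, n = 3 per group, limma adjusted p = 8.47e-05), with a 95% interval from -1.06 to -0.53. It turned to a higher call under both housekeeping scalings, and with quantile normalization no call was left (0.048, adjusted p = 0.882).

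Pla2g4a, the arachidonic acid-releasing phospholipase gene, read 183, 177 and 189 with UV and 58.2, 84.7 and 75.4 with BMS-202. All BMS-202 samples lay below the UV samples and above their own negative control limit, on 48 to 71 counts each. The mean fell 2.52-fold (log2 -1.34 ± 0.13, SE, n = 3 per group, limma adjusted p = 2.79e-06). Of the 3 enzymes it alone kept a lower call with quantile normalization (-1.57, adjusted p = 0.000270), while both housekeeping scalings turned it to a higher call.

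Because a scaling factor multiplies all genes of a sample alike, the ratio of 2 genes within a sample does not depend on it. Ptgs2 was 0.382, 0.396 and 0.383 of Ptgs1 in the UV samples and 0.702, 0.779 and 0.595 of Ptgs1 in the UV plus BMS-202 samples, so every BMS-202 sample had the higher ratio. The log2 ratio differed by 0.83 between the groups (exact two-sided permutation test, n = 3 per group, p = 0.1, the smallest p that 3 against 3 samples can give). Quantile normalization, which changes values by rank rather than by a factor, left a difference of 0.015. Ptgs2 relative to Pla2g4a was 1.26, 1.33 and 1.14 with UV and 2.06, 1.89 and 1.54 with BMS-202, again without overlap. The levels of different probes are not compared, since probes differ in how well they bind. These ratios show unequal change and leave the absolute direction of each gene undetermined.

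**Figure D2:**
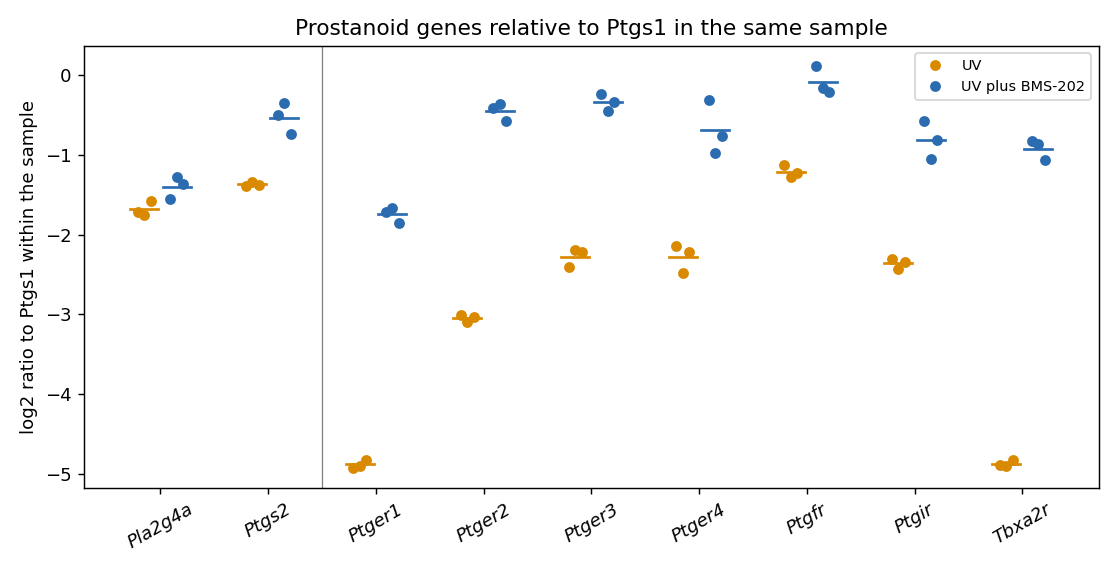
Log2 ratio of each prostanoid gene to Ptgs1 within the same sample (points) and the mean of 3 samples (bars). For all 9 genes the BMS-202 points lie above the UV points. The margin is small for Pla2g4a, with a highest UV point of -1.58 and a lowest BMS-202 point of -1.55. Ptgs1 had the lowest difference of the 10 genes, so the mean ratio to it was higher with BMS-202 for each of the others. The UV points of Ptger1 and Tbxa2r rest on values at or next to the floor and are upper bounds.

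The prostaglandin E2 receptor genes moved in different ways. Ptger1, which encodes the calcium-linked EP1, was at the floor of 20 in all 3 UV samples and read 52.1, 64.4 and 53.5 with BMS-202, at least 2.83-fold higher (limma adjusted p = 8.70e-08). With every UV value set to the floor, that p takes no account of spread among the UV samples. The BMS-202 values stood on 43 to 54 counts and were above the negative control limit of their own sample in 3 of 3 cases. When each sample's mean negative control was subtracted, values under 20 were set back to 20, so only the BMS-202 values of Ptger1 went down. The log2 difference went from 1.45 to 0.80, a lower bound. It kept its call, again with no spread among the UV samples. Most genes at the floor in UV skin also rose above it: of 45 such panel genes, 38 were above the floor in every BMS-202 sample.

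Ptger2, the gene of the cyclic AMP-raising receptor EP2, read 75.1, 69.6 and 69.0 with UV and 128, 159 and 129.96 with BMS-202. Every BMS-202 sample was higher, and the mean rose 1.95-fold from 71.2 ± 3.35 to 139 ± 17.1 (SD, n = 3, limma adjusted p = 9.14e-06). Ptger3, whose product EP3 lowers cyclic AMP, read 114, 130.02 and 120.4 with UV and 144, 150.35 and 154 with BMS-202. The groups were apart by a small margin and the rise was 1.23-fold (log2 0.30 ± 0.084, SE, limma adjusted p = 0.00624), but the call ended with spike-in scaling (-0.081, adjusted p = 0.384). Ptger4, encoding EP4, the other cyclic AMP-raising receptor, read 137, 107 and 120.4 with UV and 137, 104 and 115 with BMS-202. Its groups overlapped, and there was no call (log2 -0.037, 95% interval -0.32 to 0.25, limma adjusted p = 0.783). Ptger4 was called lower with spike-in scaling (-0.42, adjusted p = 0.0234) and higher with the 6 and the 5 housekeeping genes (2.20 and 2.48).

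Ptger2 and Ptger4 signal through the same second messenger but differed in response relative to each other. Ptger4 was 1.83, 1.53 and 1.75 of Ptger2 in the UV samples and 1.07, 0.654 and 0.882 of it in the BMS-202 samples. The groups did not overlap, and the log2 ratio differed by -0.996. Ptger2 relative to Ptger3 moved the other way, from 0.659, 0.536 and 0.572 with UV to 0.891, 1.06 and 0.844 with BMS-202.

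Of the other receptors, Ptgfr, the prostaglandin F receptor gene, read 277, 246 and 239 with UV and 184, 183 and 167 with BMS-202. It was the only receptor gene called lower (log2 -0.51 ± 0.079, SE, n = 3 per group, limma adjusted p = 0.000118), though without a call under panel-median scaling (-0.18, adjusted p = 0.0601) and with higher calls under both housekeeping scalings and quantile normalization. Ptgir, the prostacyclin receptor gene, read 122, 111 and 111 with UV and 114, 99.0 and 110.3 with BMS-202. The groups overlapped, and the difference was -0.090 with a 95% interval from -0.30 to 0.12 (limma adjusted p = 0.373). Its call depended on the reference: Ptgir was called lower with spike-in scaling (-0.47, adjusted p = 0.00254) and with the negative controls subtracted (-0.25, adjusted p = 0.0498). It was called higher with the panel median (0.24, adjusted p = 0.0452) and with the 6 and the 5 housekeeping genes (2.15 and 2.36). Tbxa2r, the thromboxane receptor gene, was at the floor in 2 UV samples and read 20.4 in the other, against 95.7, 112 and 92.8 with BMS-202. It was at least 4.98-fold higher (limma adjusted p = 3.34e-09), with all 3 UV values under their negative control limits. That p takes no account of spread among the UV samples, whose values lie at or next to the floor.

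Without overlap between the groups were 4 prostanoid genes that read higher, against 38.8% of tested panel genes, and 4 that read lower, against 56.2%. Per positive spike-in count, the BMS-202 group had 0.248 of the UV level of Ptgs1, 0.304 of Pla2g4a, 0.443 of Ptgs2 and 0.536 of Ptgfr. On this measure Ptgir stood at 0.722, Ptger4 at 0.748 and Ptger3 at 0.946 of the UV level, whereas Ptger2 stood at 1.49 times, Ptger1 at 2.15 times or more and Tbxa2r at 3.79 times or more. The 3 enzymes were lowest here too, since the reference moves all genes of a sample by 1 factor.

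With the deposited values the enzyme genes and the receptor genes lay apart. The mean log2 difference was -1.25 over the 3 enzymes (range -1.63 to -0.80) and 0.62 over the 7 receptors (range -0.51 to 2.26), a gap of -1.87. The receptor mean was carried by Ptger1 and Tbxa2r, whose UV values lie at or next to the floor: over the other 5 receptors the mean was 0.12, the median -0.037 and the gap -1.37. With the deposited scaling all 3 enzyme differences lay below all 7 receptor differences. Under quantile normalization Ptgs2 lay above Ptgir. Ptgs2 also lay above Ptger1 with both housekeeping scalings, where the rescaled floor held Ptger1 at 1.44, a lower bound. That crossing says nothing of their order, since a scaling factor leaves the ratio of 2 genes in a sample unchanged. The median over all tested genes was -0.56. No p is given for these group values, since the genes were picked with earlier results of these data known.

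Differences also varied with the level of the genes in UV skin, though not in step among the prostanoid genes. Ptgfr, with a UV mean of 254, differed by -0.51, whereas Ptgs2 (UV mean 227) and Pla2g4a (UV mean 183) differed by -0.80 and -1.34. Over the panel, genes with high values in UV skin read lower with BMS-202 and genes with low values read higher: 54 of 55 other genes with UV means of 300 to 1000 read lower (median log2 -1.84), as did 44 of 52 between 100 and 300 (median -0.89), but 11 of 61 between 20 and 100 (median 1.00). Each prostanoid gene was therefore set beside the other endogenous genes with a UV mean within 1.5-fold of its own. Ptgs2 differed by -0.80 where 41 such genes had a median of -0.96, and Ptgs1 by -1.63 where 36 genes had a median of -1.80. Pla2g4a, at -1.34, lay below the median of its 41 genes (-0.96). All 36 genes beside Ptgs1 read lower, and 38 of the 41 beside Ptgs2 did.

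The receptor genes lay at or above the genes of like level, apart from Ptger1. Ptger3 was higher by 0.30 where its 30 neighbours in level had a median of -0.56, and 28 of the 30 lay below it. Ptger2 (0.95 against a median of 0.43 over 26 genes) and Tbxa2r (2.26 against 1.77 over 25) were above 21 and 19 of their neighbours. Ptger4 (-0.037 against -0.56 over 30 genes) was above 20, and Ptgfr (-0.51 against -1.11 over 46 genes) above 35. Ptgir matched its neighbours, with -0.090 against -0.084 over 28 genes. Ptger1, at 1.45, was under the median of 1.82 of the 44 other genes that stood at the floor in every UV sample. Whether level, depth or the negative control signal plays a part in these differences was not tested, and these comparisons carry no test.

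**Figure D3:**
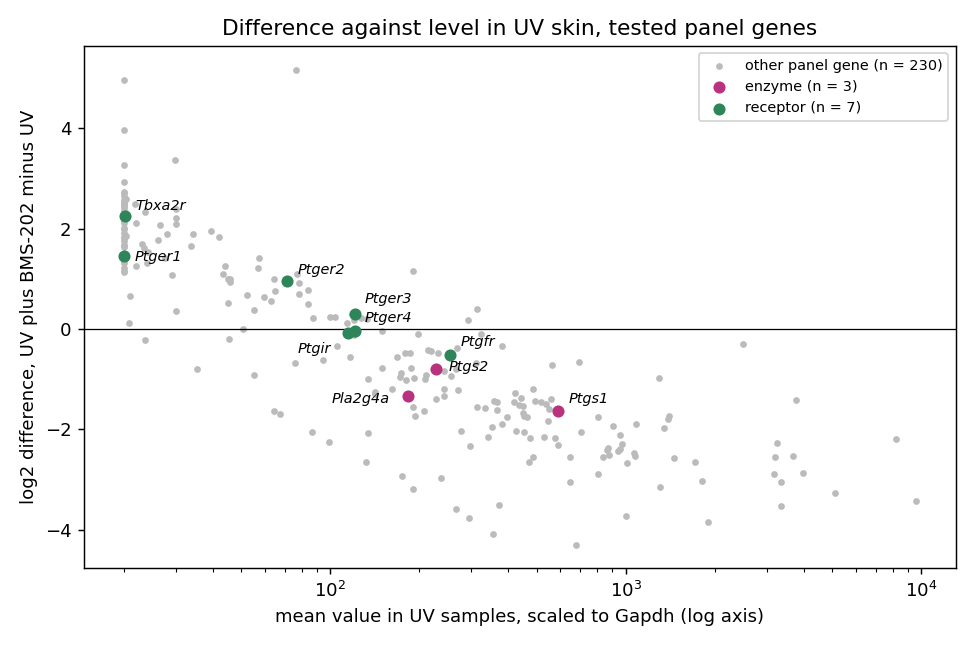
Log2 difference (UV plus BMS-202 minus UV, scaled to Gapdh) against the mean value in UV samples (log axis) for the 240 tested genes, with enzymes and receptors of the prostanoid pathway marked. Both groups lie within the downward-sloping cloud of the panel, with Ptgfr above Ptgs2 and Pla2g4a although its UV mean is higher. Ptger3 sits above 28 of 30 genes of like level, and the 3 enzymes sit among theirs. The height of the whole cloud depends on the scaling, with a panel median of -0.56 here and 1.35 with the 6 housekeeping genes.

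Other references for scaling moved most genes. The panel median moved by 1.91 with the 6 housekeeping genes and by 2.10 with the 5 other than Gapdh, and under each of these all 10 prostanoid genes were called higher, where 76.7% and 84.2% of tested genes were called higher and 14.2% and 6.25% lower. Scaling to the panel median gave 5 prostanoid genes higher (42.5% of the panel) and 3 lower (50.4%). The positive spike-in controls gave 3 higher (33.8%) and 6 lower (59.2%). Quantile normalization gave 5 higher (41.7%) and 1 lower (40.0%). Ptger1, Ptger2 and Tbxa2r were called higher under all 6 scalings, as were 27.9% of tested genes, and 0 prostanoid genes were called lower under all 6, against 6.25% of tested genes. For Ptger1 and Tbxa2r the housekeeping and panel-median scalings can hardly move the difference, because the floor is rescaled with the values. The UV values of Ptger2 also met the rescaled floor under both housekeeping scalings, so its difference of 2.73 in each is a lower bound. With the 5 housekeeping genes the same floor reached UV values of Ptger3, Ptger4 and Ptgir, whose 2.84, 2.48 and 2.36 are lower bounds too.

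**Figure D4:**
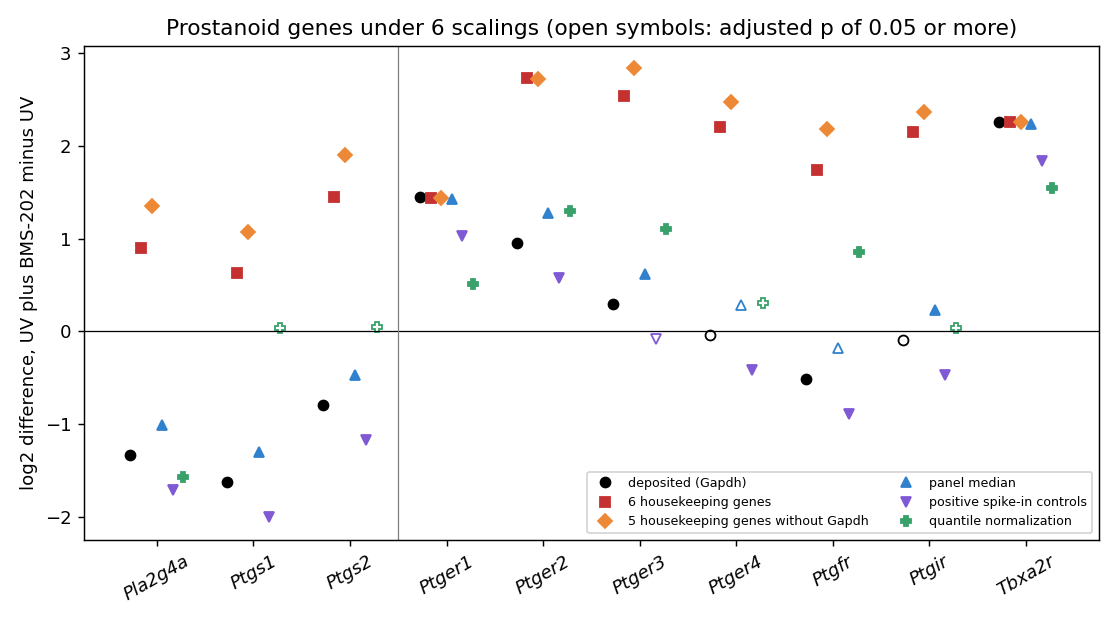
Log2 difference (UV plus BMS-202 minus UV) of each prostanoid gene under 6 scalings, with filled symbols for an adjusted p under 0.05. Both housekeeping scalings place all 10 genes above 0. Ptger1, Ptger2 and Tbxa2r are filled and above 0 under all 6, while the enzymes lie on both sides of 0.

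Genes around the pathway were counted by list, beside the 38.3% of tested genes called higher and the 55.0% called lower. Of 9 cytokine and transcription factor genes known to induce Ptgs2, 8 were lower and Tnf was higher (median log2 -1.74, against -0.56 for all tested genes). With the 6 housekeeping genes 5 were higher, beside 76.7% of tested genes, and with the 5 housekeeping genes 6 were, beside 84.2%. Lower with these were 3 and 1 of the 9, beside 14.2% and 6.25% of tested genes. Several of the 9 have UV means above 300, a level at which nearly all panel genes read lower. Cebpb, a transcription factor gene of the C/EBP family, fell 8.27-fold and kept a lower call whichever of the 6 scalings was used. Nfkb1, an NF-kB subunit gene, fell 5.89-fold and had no call with the 5 housekeeping genes (0.15, adjusted p = 0.145). Of 7 tested genes for G proteins and second messengers downstream of prostanoid receptors, 5 were lower and 2, Prkca and Creb1, were higher. The median of the 7 was -1.43, turning to 0.82 and 1.27 with the 6 and the 5 housekeeping genes. Plcb1, among those called lower, was listed at 20 throughout the BMS-202 group, so its call takes no account of spread there. Gnas, which encodes the G protein that EP2 and EP4 use to raise cyclic AMP, fell 11.5-fold, with a lower call in each of the 6 scalings. Gnb1, a G protein beta subunit gene, fell 5.80-fold but turned to 0.18 with the 5 housekeeping genes.

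The leukotriene branch, which uses the same arachidonic acid, had 3 genes higher, 3 lower and 1 without a call among 7. Their median was -0.22. It turned to 1.71 and 2.11 with the 6 and the 5 housekeeping genes and to 0.21 with quantile normalization. Alox15 and Cysltr2, both called higher, were listed at 20 throughout the UV group. Cysltr1, called lower, and Alox12, without a call, were listed at 20 throughout the BMS-202 group. A group listed at 20 throughout shows no spread, so these calls take no account of it there and the differences are bounds. Cysltr2, a cysteinyl leukotriene receptor gene, stood at least 6.81-fold higher with BMS-202 and Ltb4r1, a leukotriene B4 receptor gene, fell 2.97-fold, or went to 0.69 and 1.13 on the log2 scale when the 6 or the 5 housekeeping genes were the reference. Of 9 genes known to respond to prostaglandin E2 in immune cells, 4 were higher and 4 lower (median 0.17, turning to -0.20 with spike-in scaling). Il10 and Il12b, both called higher, were likewise listed at 20 throughout the UV group. With the 6 housekeeping genes 7 of the 9 were higher, beside 76.7% of tested genes. With the 5 housekeeping genes 9 were, beside 84.2%. With either, 0 were lower, beside 14.2% and 6.25% of tested genes. Among the 9, the monocyte chemokine gene Ccl2 fell 5.32-fold, although the log2 difference was 0.30 when the 5 housekeeping genes set the scale. The growth factor gene Areg fell 2.65-fold, turning to higher calls under both housekeeping scalings and quantile normalization.

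Areg and Myd88 were among the panel genes whose values over the 6 samples were closest to those of Ptgs1, with Euclidean distances in log2 values of 0.356 and 0.423. Closest to Ptgs2 were Bcl2l1 (0.399), Maff (0.585) and Cxcr4 (0.586), and closest to Pla2g4a were Irf5 (0.496), Cd163 (0.595) and Ripk2 (0.645). With 2 groups, such likeness shows little more than a similar level in each group.

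Cell type markers on the panel were few. None of the fixed markers of keratinocytes, mast cells, platelets, muscle or adipocytes is among its genes, so the labelled tissue could not be checked with them. Of 7 genes listed for macrophages 5 were on the panel. Their summed value was 1630 to 1712 in UV samples and 819 to 894 in UV plus BMS-202 samples. The sum includes Csf1, which encodes a secreted growth factor of macrophages and does not mark the cells themselves. Cd163, Mrc1 and Csf1 were lower, Chi3l3 higher and Arg1 without a call, and none was at the floor in a whole group. Under each housekeeping scaling 4 of the 5 were higher, beside 76.7% (6 genes) and 84.2% (5 genes) of tested genes. The 2 neutrophil markers on the panel, Cxcr1 and Cxcr2, summed to 119 to 145 and 183 to 221. Cxcr1 was at the floor in UV skin and called higher, and Cxcr2 had no call (log2 0.11, limma adjusted p = 0.436). The 2 T cell markers, Cd4 and Cd40lg, summed to 74.7 to 95.5 and 189 to 198, with Cd40lg at the floor in UV skin. The 1 gene present of those listed for fibroblasts, Pdgfa, read 861 to 889 and 161 to 174 and was lower, except with the 5 housekeeping genes (0.34). Pdgfa encodes a secreted growth factor that other cell types make too, so it does not mark fibroblasts alone. The 1 endothelial marker, Flt1, read 129.7 to 168 and 80.0 to 91.9 and was lower, except with the 6 and the 5 housekeeping genes (1.46 and 1.89). The part of these cells in the prostanoid values was not tested.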

How the data were processed

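RNA of 6 skin samples was measured on 1 nCounter panel, whose 254 genes comprise 6 housekeeping and 248 endogenous ones beside 8 negative and 6 positive control probes, per the labels and the deposited table. The deposited values are a signal, scaled probe counts: all gene values above 20 are whole multiples of 1 step per sample (within 0.006 plus a millionth of the value) and Gapdh is constant. Control rows are unscaled counts. How background was handled, and with what software, is not given in the sources used here. Dividing by the step gave counts, used for depth only.

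Groups came from the treatment label. limma 3.58.1 (R 4.3.3; lmFit, eBayes with trend) was run on log2(value + 1), which understates changes of low genes, over 240 endogenous genes above 20 in at least 3 samples. P-values were Benjamini-Hochberg adjusted over all of them, and the threshold was 0.05. It was tested on simulated data. Folds are ratios of group means, taken against the floor of 20 where UV samples were at it. Rescaled values got 1 floor, the highest rescaled 20. Genes and lists were chosen with earlier results of these data known. Named genes were the 10, the housekeeping genes, the 2 smallest p of each list and the 3 nearest genes of each enzyme, of which 1 is not reported here. Tnf, Prkca, Creb1, Gpr44, the list genes named for floor values and the markers named singly were added after their values were seen. All 10 symbols were found in RefSeq (GRCm38.p6), 9 of them with a promoter window.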

Additional observations from a re-analysis of the deposited data

How the results depend on the processing

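Filters (no filter, above 50), a pseudocount of 10, limma without trend or with robust estimation, the replicate block, subtraction of negative controls and leaving out each sample gave 130 values of single prostanoid genes, of which 127 kept direction and side of the threshold. The exceptions were Ptgir with negative controls subtracted (-0.25) and Ptger4, which had no call and turned from -0.037 to between -0.14 and 0.055 when samples were left out. The filters, the limma options and the replicate block leave the log2 difference unchanged, so there only the call could change and not the direction. Samples with the same replicate number did not deviate together (correlations -0.033 to 0.020 over genes), so numbers were not taken as pairs; with the replicate block the calls stayed at 4 higher and 4 lower (panel 90 higher, 132 lower). Leaving out samples gave 4 and 4 each time, 87 to 94 and 132 to 134 for the panel, 0.74 to 0.94 for the Ptgs2 to Ptgs1 ratio and -1.95 to -1.77 for enzymes minus receptors.

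Scaling decided directions. With the 6 housekeeping genes Pla2g4a turned to 0.90, Ptgs1 to 0.63, Ptgs2 to 1.45, Ptger4 to 2.20, Ptgfr to 1.74 and Ptgir to 2.15, with 10 prostanoid genes higher and 0 lower and 184 and 34 panel genes. With the 5 without Gapdh they turned to 1.35, 1.08, 1.90, 2.48, 2.19 and 2.36, again 10 and 0, with 202 and 15 panel genes. With the panel median Ptger4 turned to 0.29 and Ptgir to 0.24, and with spike-ins Ptger3 to -0.081. With quantile normalization Ptgs1 turned to 0.032, Ptgs2 to 0.048, Ptger4 to 0.31, Ptgfr to 0.86 and Ptgir to 0.032, leaving 1 prostanoid gene lower. Enzymes minus receptors moved from -1.87 to -1.70 (pseudocount 10), -1.31 (quantile) and -1.37 (receptors above the floor). The cause was not tested. The planned count test was not run, because the deposited columns mix scaled gene values, floor values and unscaled control counts.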

Other observations

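The panel also holds Gpr44, which RefSeq names Ptgdr2, the gene of a prostaglandin D2 receptor found on type 2 lymphocytes, eosinophils and basophils. It was not among the 10 genes and was picked out after its values were seen. Gpr44 was listed at 20 in all 3 UV samples and averaged 103 with BMS-202, at least 5.17-fold higher (limma adjusted p = 3.72e-09), so it passed the filter through the BMS-202 samples alone. With every UV value at the floor, that p takes no account of spread among the UV samples. Gpr44 was called higher under all 6 scalings, but the housekeeping and panel-median scalings can hardly move it because its floor is rescaled with the values.

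Counting error differed between the groups. Among the 8 prostanoid genes above the floor in all UV samples, 2 had an SD above that expected from counting, whereas 5 of the 10 did with BMS-202. The coefficient of variation ran from 3.15 to 12.6% with UV and from 3.32 to 18.5% with BMS-202, where the genes stood on 43 to 178 counts per sample against 79 to 710 with UV.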
